A study of Homo sapiens with 15 samples.

Results

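Human umbilical vein endothelial cells (HUVEC), primary cells from the inner lining of the umbilical vein, were compared after 6 h with exosomes from either of 2 T cell lines. One source was Jurkat (JK), an established line from a human T cell leukaemia. The other was JinB8 (JINB8), a Jurkat mutant deficient in CD47. The comparison took 3 arrays of HUVEC with JINB8 exosomes against 3 of HUVEC with JK exosomes, 6 of the 15 arrays in the series, as labelled, with no array moved or left out. Its members were the 18417 genes that 1 probeset or more names by a single symbol, out of 33297 probesets in the table.

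Both groups of cells were kept in EGM2, an endothelial growth medium, and both received vesicles precipitated with an ExoQuick kit from medium of T cells grown with human AB serum. Total RNA including small RNAs was taken with a miRNeasy kit, and 300 ng of each sample were labelled with biotin. The remaining arrays held 3 samples of untreated HUVEC and 3 samples each of RNA from JK and JINB8 exosomes. A mutant line was compared with its parent, so the loss of CD47 and any other difference between the lines cannot be told apart. The labels give no amount of exosomes per culture. They call the samples replicates without naming separate cultures, and a p-value here covers the spread among arrays, which may be technical.

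CD47 is a cell surface protein that binds thrombospondin-1 and signal regulatory protein alpha (SIRPA). On phagocytes its binding to SIRPA restrains engulfment. In endothelial cells thrombospondin-1 acts through CD47 to limit nitric oxide signalling and VEGF receptor 2 signalling. Exosomes are vesicles of endosomal origin that carry protein and RNA, microRNAs among them, and can be taken up by other cells. MicroRNAs are short RNAs that recognise messages mostly through their seed, the stretch near the 5′ end that pairs with the target.

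The deposited values were log2 levels on Affymetrix whole-transcript gene arrays. The medians over all probesets averaged 5.14 ± 0.03 (SD, n = 3) with JK exosomes and 5.11 ± 0.02 (SD, n = 3) with JINB8 exosomes. Those of the exosome RNA averaged 5.11 and 5.12. The untreated HUVEC sat at 6.97, on a level of their own, and enter none of the comparisons below; they share in the spread only of alternative fits over 9 and 15 arrays.

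The label HUVEC was checked against marker genes. Of 26 endothelial genes, 24 were higher on all 6 HUVEC arrays than on all 6 exosome RNA arrays. CDH5, the VE-cadherin of endothelial junctions, read 11.66 to 11.85 in the treated HUVEC and 5.41 to 5.74 in exosome RNA. Of 28 T cell markers, 27 were lower on all 6 HUVEC arrays, among them CD3E of the T cell receptor complex, at 3.15 to 3.41 against 5.95 to 6.56. The exosome RNA arrays may have been normalized apart from the HUVEC arrays, so these levels are set side by side and not tested.

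The arrays labelled replicate 3 stood apart from the rest of their groups, and on many genes they read like the other group. Across the 18417 genes the array of JK replicate 3 correlated at 0.995 with JINB8 replicate 1 and at 0.993 and 0.992 with JK replicates 1 and 2. The array of JINB8 replicate 3 correlated at 0.996 with JK replicate 1 and at 0.994 and 0.995 with JINB8 replicates 1 and 2. These are correlations across genes, which are not independent. The first principal component held 44.2% of the variance, with JK replicates 1 and 2 at -14.8 and -17.6 and JINB8 replicates 1 and 2 at 15.1 and 13.0. On it JK replicate 3 lay at 8.91, on the JINB8 side, and JINB8 replicate 3 at -4.63, on the JK side. The second component, with 21.1% of the variance, kept all arrays on the sides of their labelled groups. There JK replicates 1, 2 and 3 lay at -0.52, -3.83 and -16.6 and JINB8 replicates 1, 2 and 3 at 1.51, 7.97 and 11.5. Each replicate 3 was the farthest out on its own group's side.

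The pattern of the first component was also seen in the genes that varied most inside a group. Of the 100 brighter genes (mean above that of the median gene, 5.61) with the largest SD within groups, JK replicate 3 was the farthest from its group in 96 and JINB8 replicate 3 in 90. Over all 9208 brighter genes the shares were 48.0% and 43.5%. For GNA14, a G protein alpha subunit, the JK arrays read 4.70, 4.81 and 7.07 and the JINB8 arrays 7.33, 7.05 and 4.84. Both replicates 3 thus lay with the opposite group. SLC5A3, the sodium and myo-inositol transporter, read 8.62, 8.77 and 11.15 with JK and 11.37, 10.93 and 9.01 with JINB8.

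Endothelial genes were among those with this pattern. SELE, the E-selectin that captures leukocytes on activated endothelium, read 7.01, 6.94 and 5.87 with JK and 5.73, 5.92 and 7.39 with JINB8. KDR, VEGF receptor 2, read 9.92, 9.88 and 8.81 with JK and 8.84, 9.07 and 9.84 with JINB8. PLAT, tissue plasminogen activator, read 8.57, 8.57 and 10.03 with JK and 10.28, 9.93 and 8.59 with JINB8. In each of these the groups overlapped, with replicates 1 and 2 of a group close together and the array labelled replicate 3 at the level of the other group. VEGFC, a lymphatic growth factor, read 7.72, 7.79 and 9.24 with JK and 9.56, 9.14 and 8.13 with JINB8. The 2 groups as labelled are used throughout, and the cause of the pattern was not tested.

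**Figure D1:**
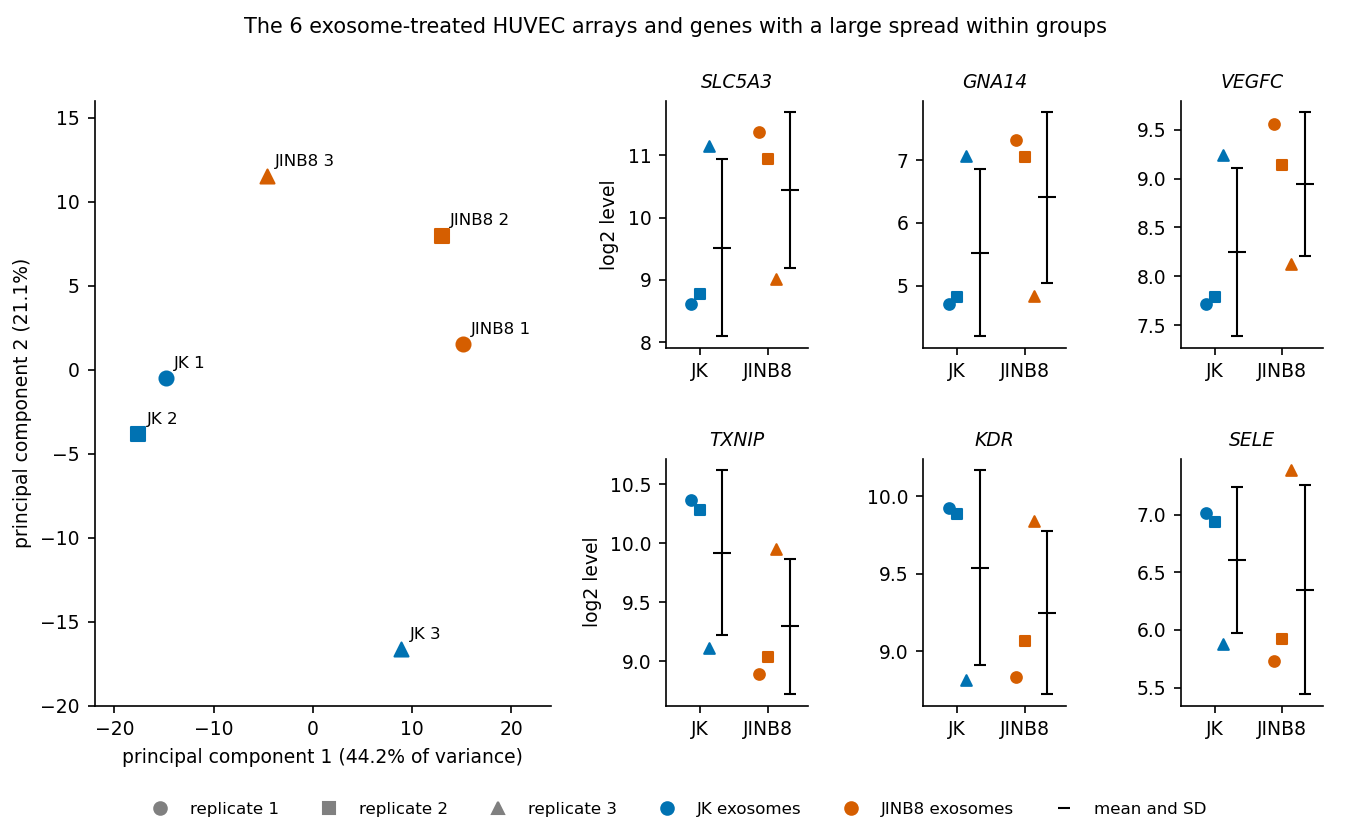
The first panel plots the 6 exosome-treated HUVEC arrays on principal components 1 (44.2% of variance) and 2 (21.1%), and the other panels plot the log2 level of genes with a large spread on each array, by group and replicate, with mean and SD. JK replicate 3 sits at 8.91 on component 1, on the side of JINB8 replicates 1 and 2, and JINB8 replicate 3 sits at -4.63, towards JK. On component 2 these arrays sit at -16.6 and 11.5, on the sides of their own groups.

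No gene passed an adjusted p of 0.05 between JINB8-treated and JK-treated HUVEC (percent called 0), by limma with Benjamini-Hochberg adjustment over 18417 genes, where the smallest adjusted p was 0.153. An unadjusted p under 0.05 was reached by 2165 genes, 11.8% of those tested, with 998 (5.42%) higher and 1167 (6.34%) lower with JINB8. The values of the 3 JINB8 arrays lay wholly above those of the 3 JK arrays for 1414 genes (7.68%) and wholly below for 1802 (9.78%). With each array centred on its median, the split at an unadjusted p under 0.05 was 1662 higher and 537 lower, and without overlap 2340 and 937. With quantile normalization it was 1108 and 982, and 1578 and 1581. The direction of a difference close to 0 therefore rests on the scaling.

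The differences were small. The median over all genes was -0.02 on the log2 scale, and 98% of genes lay between -0.37 and 0.42. Only 73 genes passed 1.5-fold, 52 higher and 21 lower, and 4 passed 2-fold. The 95% confidence interval from limma lay wholly within 1.5-fold for 17364 genes, 94.3% of those tested. For a typical gene the interval reached 0.21 on the log2 scale to each side of the estimate. An exact permutation test over 3 against 3 arrays cannot give a two-sided p below 0.1.

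Without the array of JK replicate 3, 3239 genes had an unadjusted p under 0.05, 1518 higher and 1721 lower, and the smallest adjusted p was 0.0579. Without JINB8 replicate 3, 1079 were higher and 1353 lower. Without JINB8 replicate 2 the total was 1267. Down-weighting arrays by their spread, which gave JK replicate 3 a weight of 0.49 and JINB8 replicate 3 of 0.763, put 6 genes past the adjusted threshold, all higher with JINB8: MIR221, WBP2, UBQLN4, IPO13, PIAS3 and SRCAP.

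**Figure D2:**
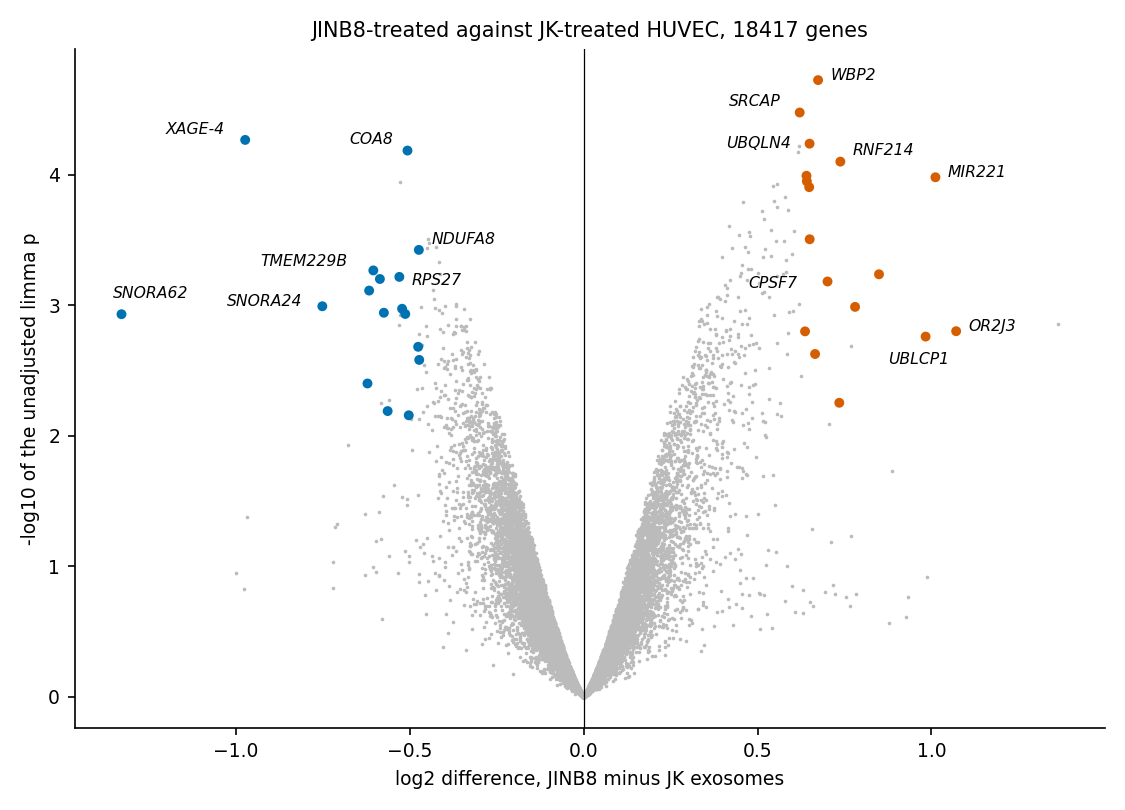
Each point is 1 of 18417 genes, with the log2 difference between HUVEC with JINB8 and with JK exosomes on the x axis and -log10 of the unadjusted limma p on the y axis. MIR221 lies at 1.01 and SNORA62 at -1.33, and no gene has an adjusted p under 0.05.

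Antisense transcripts aside, the brighter gene with the largest positive difference was MIR221, the precursor of a microRNA that is abundant in endothelial cells and known to target the KIT receptor. Its mature 3p strand is shown beside that of MIR222, its neighbour on the X chromosome, because they share a seed and both precursors read higher with JINB8. The sequences and positions are RefSeq's on GRCh38.p14, and capitals mark the seed, bases 2 to 8.
hsa-miR-221-3p, chrX:45746180-45746202, minus strand: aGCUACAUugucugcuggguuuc
hsa-miR-222-3p, chrX:45747036-45747056, minus strand: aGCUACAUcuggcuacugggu
hsa-let-7g-5p, chr3:52268336-52268357, minus strand: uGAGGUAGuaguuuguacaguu
hsa-miR-423-5p, chr17:30117095-30117117, plus strand: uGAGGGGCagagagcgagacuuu
The miR-221 and miR-222 strands carry GCUACAU. The let-7g strand, from a precursor that read higher, and the miR-423 strand, from one that read lower, carry other seeds.

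MIR221 read 5.47, 5.16 and 5.84 on the JK arrays and 6.42, 6.54 and 6.54 on the JINB8 arrays. The groups did not overlap, and the difference was 1.01 ± 0.15 (SE) on the log2 scale, 2.02-fold, with a 95% interval of 0.67 to 1.36. It did not pass by limma (adjusted p = 0.153). MIR222 read 5.55, 5.69 and 5.76 with JK and 5.98, 6.09 and 6.01 with JINB8, a difference of 0.36 ± 0.08 (SE) that did not pass either (adjusted p = 0.219). In the exosome RNA itself MIR221 read 4.18, 4.06 and 4.32 for JK and 3.88, 3.96 and 4.14 for JINB8, lower by 0.20 and not passing.

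The array reads the precursor or its longer primary transcript and not the mature strand. Of 186 microRNA genes measured, 164 matched the RefSeq table. Of the 186, 13 were host genes by symbol, and these did not match it. An unadjusted p under 0.05 was reached by 8 of the 186 higher, against 5.42% of all genes, and by 15 lower, against 6.34%. The median difference was -0.05, against -0.02 over all genes, and 0.01 with arrays centred. MIR30C2 was higher by 0.59, MIR32 by 0.37 and MIRLET7G by 0.28, each with no overlap. MIR99A was lower, at -0.50, and so were MIR331, at -0.38, and MIR423, at -0.35. None of these passed.

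The other leading higher genes were of mixed function. All leading genes, MIR221 among them, were chosen for an unadjusted limma p under 0.01 and groups without overlap. Their lack of overlap is therefore no further evidence, and 17.5% of all genes share it. WBP2, a WW-domain binding coactivator, had tight groups, at 7.73, 7.75 and 7.80 with JK and 8.32, 8.52 and 8.47 with JINB8. Its difference was 0.67 ± 0.08 (SE), and here the arrays labelled replicate 3 lay with their own groups. UBLCP1, a proteasome phosphatase, was higher by 0.98, but its JINB8 arrays were spread, at 7.58, 8.34 and 8.60 against 7.29, 7.19 and 7.09. PPP1R11, an inhibitor of protein phosphatase 1, read 7.52, 7.46 and 7.35 with JK and 7.74, 8.16 and 8.44 with JINB8, higher by 0.67.

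SRCAP, the ATPase of a complex that places the histone variant H2A.Z, read 8.26, 8.21 and 8.34 with JK and 8.85, 8.99 and 8.84 with JINB8, higher by 0.62 ± 0.08 (SE). RAB5B, an early endosome GTPase, read 8.79, 8.70 and 8.89 against 9.27, 9.47 and 9.58, higher by 0.65. STIM2, a calcium sensor of the endoplasmic reticulum, was at 6.25, 6.07 and 6.40 against 6.95, 6.86 and 6.83, higher by 0.64. In these 3 genes every JINB8 array lay above every JK array, as the choice of leading genes required. RNF214, a RING finger protein, was higher by 0.74, and CPSF7, a subunit of the cleavage factor for message 3′ ends, by 0.70. CREB3L2, a transcription factor of the endoplasmic reticulum, and UBQLN4, a ubiquilin that shuttles proteins to the proteasome, were each higher by 0.65, and ATN1, a transcriptional corepressor, by 0.64. None of the 12 passed.

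The leading lower genes held several short transcripts. SNORA24, an H/ACA box small nucleolar RNA that guides pseudouridylation, read 7.28, 6.86 and 6.87 with JK and 6.33, 6.47 and 5.95 with JINB8, a difference of -0.75 ± 0.16 (SE). SCARNA17, a small Cajal body RNA that guides modification of spliceosomal RNA, read 8.21, 8.39 and 7.91 against 7.65, 7.48 and 7.53, a difference of -0.62. SNORD104, a C/D box guide of ribose methylation, differed by -0.52 and SNORD13P2 by -0.56. In these 4 the JINB8 arrays lay wholly below the JK arrays, as the choice of leading genes required. Many such RNAs lie inside introns of host genes, and the processed small RNA and the host transcript cannot be told apart on these arrays.

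COA8, an assembly factor of cytochrome c oxidase, had tight groups. It read 6.42, 6.34 and 6.34 with JK and 5.85, 5.85 and 5.89 with JINB8, a difference of -0.51 ± 0.07 (SE). NDUFA8, a subunit of respiratory complex I, read 8.09, 8.04 and 8.03 against 7.70, 7.57 and 7.46, a difference of -0.47. Neither passed, and the lack of overlap between their groups was a condition of their choice. TMEM258, a subunit of the oligosaccharyltransferase, differed by -0.57, H2AC20, a histone H2A, by -0.51, ABRACL by -0.50 and APH1B, of the gamma-secretase complex, by -0.47. The ribosomal protein genes RPS27 and RPL27A differed by -0.53 and -0.48. For RPL27A the other probesets of the gene differed by -0.23 and 0.04.

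**Figure D3:**
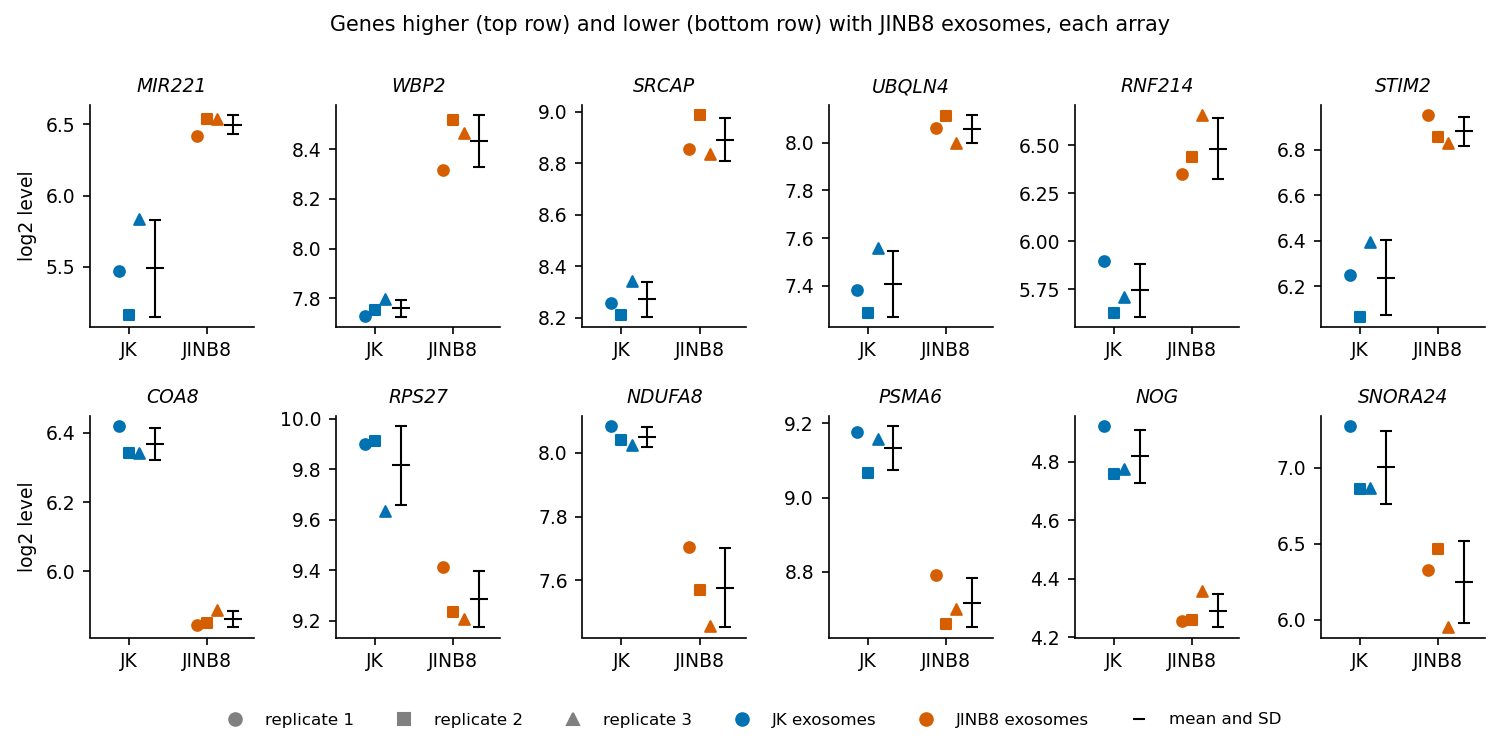
Log2 level on each of the 6 arrays for genes leading the higher (top row) and lower (bottom row) differences, by exosome source, with replicate shown by symbol and the group mean with its SD. MIR221 reads 5.16 to 5.84 with JK and 6.42 to 6.54 with JINB8, and COA8 reads 6.34 to 6.42 with JK and 5.85 to 5.89 with JINB8.

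The leading dimmer genes had a mean level below that of the median gene and were likewise chosen for groups without overlap. SNORA62, an H/ACA box RNA, read 5.82, 6.03 and 5.86 with JK and 5.27, 4.56 and 3.89 with JINB8, a difference of -1.33 ± 0.28 (SE). OR2J3, an olfactory receptor gene, read 3.55, 3.54 and 4.01 against 4.71, 5.32 and 4.29, higher by 1.07. TRIM51 was higher by 0.85, SLCO4C1 by 0.78, UBTFL1 by 0.74 and OR14C36 by 0.64. On their other probesets TRIM51 was higher by 0.29 and SLCO4C1 by 0.05. Lower with JINB8 were XAGE-4, at -0.97, OSGEP, a tRNA modification enzyme, at -0.62, TMEM229B, at -0.60, and UNC93A, at -0.59. None passed, and without detection calls it was not tested which of these lay above background.

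Genes of the CD47 pathway differed little. CD47 itself read 8.92, 9.04 and 8.69 with JK and 8.62, 8.64 and 8.78 with JINB8. The groups overlapped, and the difference was -0.21 ± 0.10 (SE), adjusted p = 0.476 by limma. THBS1, thrombospondin-1, read 12.56, 12.64 and 12.52 against 12.63, 12.65 and 12.56, a difference of 0.05 with an interval of -0.12 to 0.21. SIRPA differed by -0.03 ± 0.10 (SE). In exosome RNA, CD47 read 4.72, 4.69 and 4.72 for JK and 4.58, 4.67 and 4.94 for JINB8. The signal did not separate the mutant's vesicles from the parent's (adjusted p = 0.988 by limma). It lay below the median of every exosome RNA array and, without detection calls, may be background. Equal transcript in the vesicles is therefore not shown, and the array says nothing of the surface protein.

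Of 17 CD47, SIRP and thrombospondin genes, 2 had an unadjusted p under 0.05 higher (5.42% of all genes) and 0 lower (6.34%), with a median of 0.03. These were NOS3 and GUCY1A1. NOS3, the endothelial nitric oxide synthase, read 6.16, 6.07 and 5.97 with JK and 6.17, 6.45 and 6.49 with JINB8, higher by 0.30 ± 0.10 (SE). GUCY1A1, a subunit of the guanylate cyclase that nitric oxide activates, read 4.16, 4.15 and 4.35 against 4.58, 4.43 and 4.57, higher by 0.31. Neither passed. For NOS3 the lowest JINB8 array, at 6.17, lay next to the highest JK array, at 6.16.

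Of 9 VEGF ligands, receptors and neuropilins, 1 had an unadjusted p under 0.05 higher (5.42% of all genes), VEGFB, a ligand of VEGF receptor 1. It read 7.27, 7.40 and 7.09 with JK and 7.56, 7.57 and 7.78 with JINB8, higher by 0.38 ± 0.10 (SE). FLT1, VEGF receptor 1, differed by 0.09. VEGFA differed by 0.12, by 0.28 without JK replicate 3, by 0.22 without JINB8 replicate 3 and by 0.03 without replicate 1 of either group. KDR differed by -0.29 ± 0.33 (SE) as labelled, by -0.66 without JK replicate 3 and by -0.59 without JINB8 replicate 3. ANGPT2, a TIE2 ligand kept in Weibel-Palade bodies, read 8.62, 8.45 and 9.37 against 9.50, 9.46 and 9.12, higher by 0.55 with overlap, by 0.83 without JK replicate 3 and by 0.37 without JK replicate 2. TIE1, the orphan receptor of that family, was higher by 0.22 with none. None passed.

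Of 26 endothelial identity genes, 5 had an unadjusted p under 0.05 higher (5.42% of all genes) and 2 lower (6.34%), and the median was -0.02, or 0.03 with arrays centred. ERG, a transcription factor that maintains endothelial identity, read 9.82, 9.89 and 9.95 with JK and 10.14, 10.27 and 10.15 with JINB8, higher by 0.30 ± 0.08 (SE). GATA2, another endothelial transcription factor, was higher by 0.43 and ESAM, a junction adhesion molecule, by 0.27. CLDN5, the claudin of endothelial tight junctions, read 6.79, 7.12 and 6.60 against 6.18, 6.21 and 6.64, a difference of -0.49 with overlap. CDH5 differed by 0.09 and CD34 by 0.25. PECAM1 differed by 0.03 on its brightest probeset and by -0.35 on another. None of these genes passed.

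No leukocyte adhesion or chemokine gene passed. Of 12 adhesion molecules 1 had an unadjusted p under 0.05 lower (6.34% of all genes), JAM3, at -0.26, and 0 higher (5.42%). Of 16 inflammatory chemokines 0 did so in either direction. Lists this short cannot tell such counts from the shares of all genes. The chemokine list averaged 4.82 to 4.97 on the 6 arrays, below the median gene at 5.61, as did VCAM1, and there are no detection calls. VCAM1 read 3.77, 3.92 and 3.95 with JK and 3.81, 3.79 and 3.77 with JINB8, a difference of -0.09. CXCL8, the neutrophil chemokine, differed by 0.06 ± 0.15 (SE). SELE differed by -0.26 ± 0.44 (SE), with each array labelled replicate 3 far from its group. TXNIP, an inhibitor of thioredoxin, read 10.37, 10.28 and 9.12 against 8.90, 9.04 and 9.96 and differed by -0.63, or by -1.03 without JK replicate 3.

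Of 29 BMP, follistatin and ID genes, 2 had an unadjusted p under 0.05 lower (6.34% of all genes) and 2 higher (5.42%), and the median was 0.01. NOG, noggin, which binds BMP ligands, read 4.92, 4.76 and 4.78 with JK and 4.25, 4.26 and 4.36 with JINB8, a difference of -0.53 ± 0.08 (SE). ID1, a target gene of BMP signalling, read 7.23, 7.18 and 6.95 against 6.80, 6.42 and 6.79, a difference of -0.45. The type I receptor ACVR1 was higher by 0.32 and the type II receptor BMPR2 by 0.22. All 4 had groups that did not overlap, and none passed.

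Of 24 matrix metalloproteinases, ADAMTS and TIMP genes, 4 had groups without overlap higher with JINB8, against 7.68% of all genes, and 0 lower, against 9.78%. MMP14, a membrane-bound collagenase that activates MMP2, read 8.87, 8.80 and 8.89 with JK and 9.16, 9.22 and 9.32 with JINB8, higher by 0.38 ± 0.08 (SE). MMP2, a gelatinase, was higher by 0.27. TIMP3 and TIMP2, inhibitors of these enzymes, were higher by 0.42 and 0.27. On another, dimmer probeset TIMP3 was higher by 0.14. The list median was 0.02 and none passed.

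Lists of ribosomal and mitochondrial genes leaned lower with JINB8. Of 68 cytoplasmic ribosomal protein genes, 60 had a difference below 0, against 55.8% of all genes. An unadjusted p under 0.05 was reached by 22 lower, against 6.34% of all genes, and 0 higher. Groups did not overlap for 29 lower, against 9.78%, and 0 higher. The median was -0.15. RPL12 read 11.05, 11.15 and 10.85 with JK and 10.68, 10.54 and 10.62 with JINB8, a difference of -0.41 ± 0.09 (SE). RPS27 read 9.90, 9.91 and 9.63 against 9.41, 9.24 and 9.21. No member passed, and members with near-identical copies elsewhere in the genome are uncertain as single genes. Fewer cells with a transcript and less of it per cell cannot be told apart in bulk RNA.

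Of 68 nuclear genes of oxidative phosphorylation, 62 had a difference below 0 (55.8% of all genes). An unadjusted p under 0.05 was reached by 26 lower (6.34% of all genes) and 1 higher (5.42%), and groups did not overlap for 31 lower (9.78%) and 1 higher (7.68%). The median was -0.18. NDUFA11 of complex I read 6.20, 6.12 and 6.24 with JK and 5.82, 5.72 and 5.68 with JINB8, a difference of -0.45 ± 0.08 (SE). ATP5PB of the ATP synthase read 4.71, 4.84 and 4.77 against 4.45, 4.31 and 4.33, a difference of -0.41. Of 73 mitochondrial ribosomal protein genes, 65 lay below 0, with 14 at an unadjusted p under 0.05 lower and 0 higher, beside the same shares of all genes, and a median of -0.14. MRPL24 differed by -0.37 and MRPL21 by -0.43. No member of either list passed.

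These lists were described array by array. Averaged over its members, the oxidative phosphorylation list lay above its 6-array mean by 0.14, 0.10 and 0.03 on the JK arrays and at -0.06, -0.12 and -0.09 on the JINB8 arrays. The cytoplasmic ribosomal list lay at 0.15, 0.08 and 0.02 on the JK arrays and at -0.04, -0.15 and -0.06 on the JINB8 arrays. On neither list did the groups overlap, and the array of JK replicate 3 was the closest to the JINB8 arrays. Without that array 32 oxidative phosphorylation genes and 29 cytoplasmic ribosomal genes had an unadjusted p under 0.05 lower. Without JINB8 replicate 3 these counts were 22 and 19. With arrays centred on their medians the list medians were -0.12 and -0.10, and with quantile normalization -0.16 and -0.17. The median of the mitochondrial ribosomal list was -0.08 and -0.12 under these scalings.

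Of 45 proteasome genes, 11 had an unadjusted p under 0.05 lower and 1 higher, with a median of -0.10. For this list and the next ones the shares of all genes are 6.34% lower and 5.42% higher. PSMB6, a catalytic beta subunit, read 10.46, 10.35 and 10.14 with JK and 9.91, 9.77 and 9.87 with JINB8, a difference of -0.47 ± 0.10 (SE), and PSMA6, an alpha ring subunit, differed by -0.42. Of 57 replication-dependent histones 15 were lower and 1 higher at an unadjusted p under 0.05, with a median of -0.12. H3C7 differed by -0.46 and H2AC13 by 0.32, although histone copies share sequence. Of 59 splicing factor genes 10 were lower and 4 higher. Among them SNRPB, of the Sm ring, differed by -0.38 and SF3A1, of the U2 complex, by 0.41. With arrays centred the medians stayed below 0, at -0.05 for the proteasome, -0.07 for histones and -0.03 for splicing factors. No member of these lists passed.

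Small guide RNAs were counted in the same way. Of 61 H/ACA box RNAs 9 had an unadjusted p under 0.05 lower (6.34% of all genes) and 2 higher (5.42%), with a median of -0.11. Of 115 C/D box RNAs 10 were lower and 5 higher, with a median of -0.05 that became 0.00 with arrays centred. Of 16 small Cajal body RNAs 4 were lower and 0 higher, SCARNA17 among them. None passed.

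Gene length moved with the difference. Genes of the cytoplasmic ribosomal list have a median genomic length of 5.22 kb, mitochondrial ribosomal genes of 8.62 kb and oxidative phosphorylation genes of 10.6 kb, against 24.5 kb for all genes. With 18389 genes in 5 equal bins of length, from the shortest to the longest bin, the median difference went from -0.04 to 0.02. The share with groups that did not overlap lower went from 12.7% to 4.81%. Across genes, which are not independent, the correlation of the difference with the logarithm of length was 0.15 (Pearson) and 0.17 (Spearman). The part of length in the differences of these lists was not tested.

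**Figure D4:**
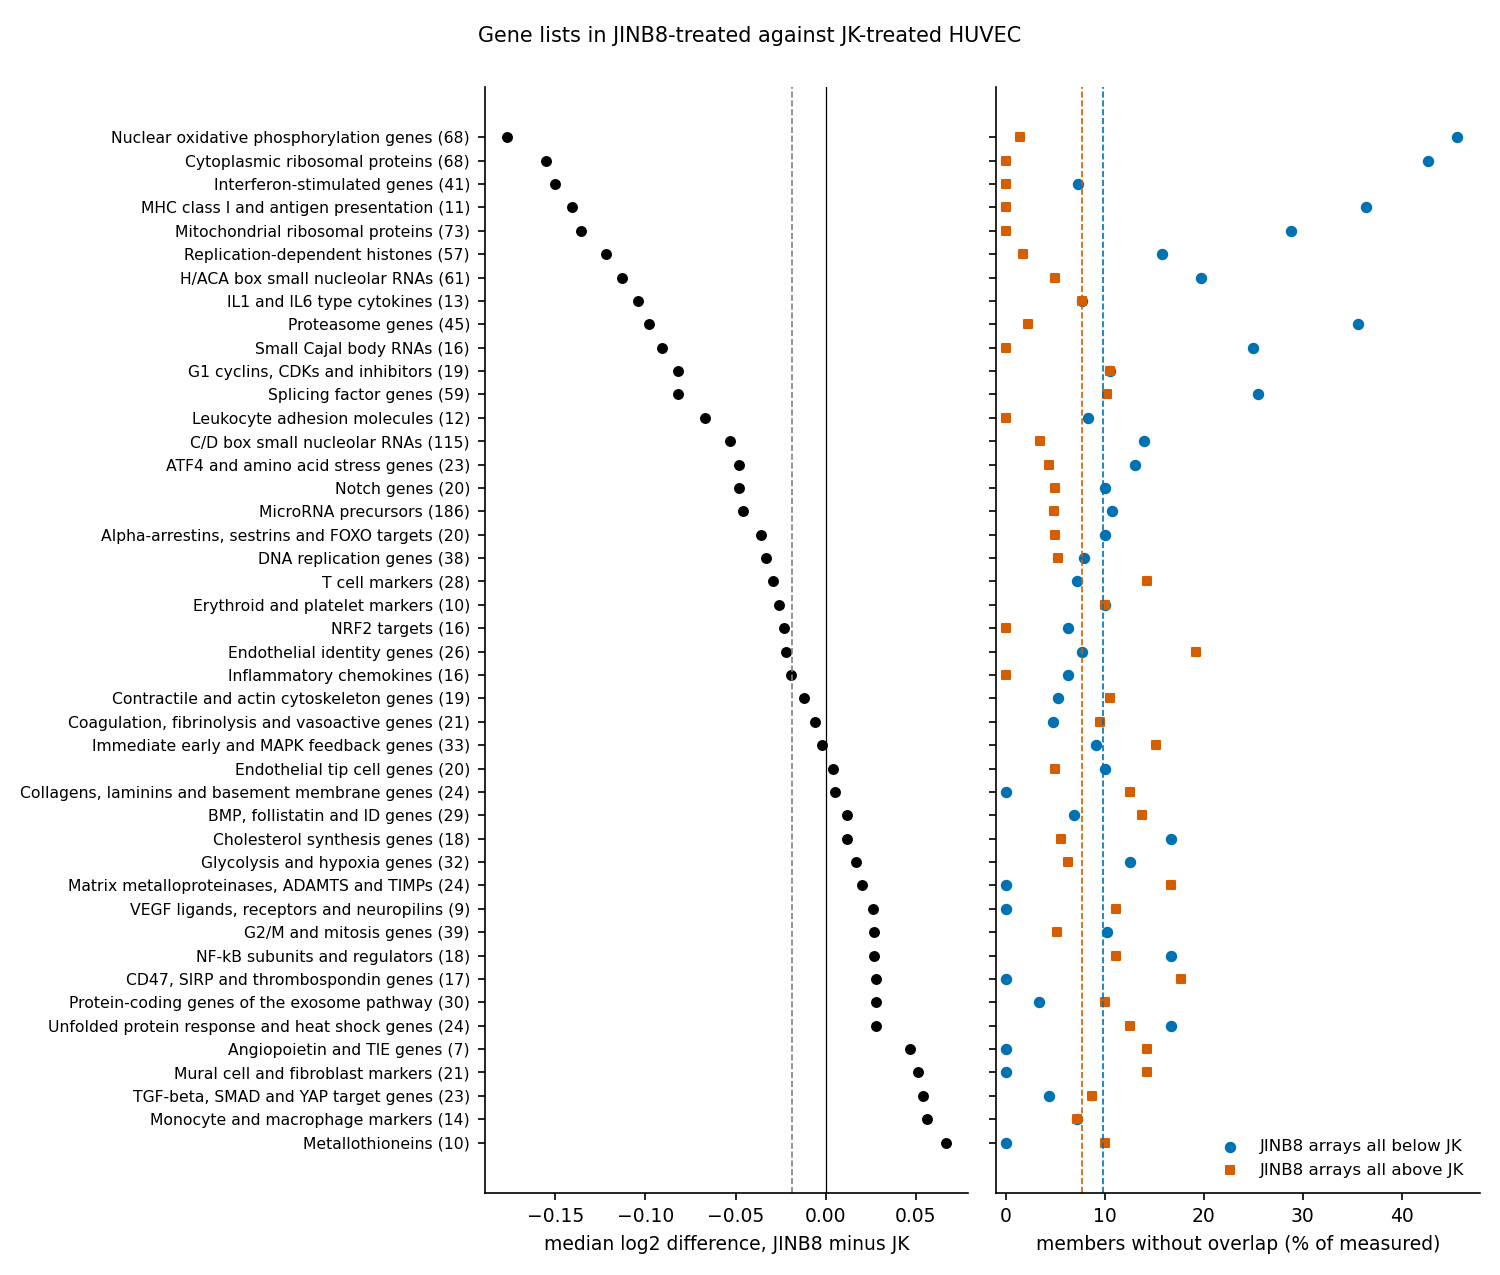
For each of 44 gene lists, with its number of measured members, the left panel plots the median log2 difference between JINB8-treated and JK-treated HUVEC and the right panel the percentage of members whose groups do not overlap, lower and higher, with dashed lines at the values for all genes (9.78% lower and 7.68% higher). The oxidative phosphorylation list lies at -0.18 with 45.6% lower, and the cytoplasmic ribosomal list at -0.15 with 42.7% lower.

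Most antigen presentation and interferon genes had differences below 0, as did 55.8% of all genes. All 11 measured MHC class I and antigen presentation genes had a difference below 0, with 3 at an unadjusted p under 0.05 (6.34% of all genes lower) and a median of -0.14. B2M, the light chain of MHC class I, read 9.12, 9.11 and 9.12 with JK and 8.95, 8.97 and 8.82 with JINB8, a difference of -0.20 ± 0.07 (SE). Of 41 interferon-stimulated genes, 33 lay below 0, with 4 lower, near the share of all genes, and 0 higher at an unadjusted p under 0.05, and a median of -0.15. OAS1, an antiviral sensor of double-stranded RNA, read 7.71, 7.72 and 7.98 against 6.75, 7.54 and 7.55. USP18, a brake on interferon signalling, read 7.16, 7.46 and 7.90 against 6.67, 7.28 and 6.95.

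The interferon list did not follow the groups array by array. Its mean deviation was -0.04, -0.09 and 0.37 on the JK arrays and -0.34, 0.10 and -0.02 on the JINB8 arrays, so JK replicate 3 was the highest and JINB8 replicate 1 the lowest, with overlap between. Without JK replicate 3 the list median was -0.03. At an unadjusted p under 0.05, 1 member was then lower (9.3% of all genes) and 2 higher (8.2%). Without JINB8 replicate 3 the median was -0.18, with 9 members lower (7.3% of all genes) and 0 higher (5.9%). With arrays centred the median was -0.10 for the interferon list and -0.09 for the MHC list. None of the members of either list passed with all 6 arrays.

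Stress and growth control genes showed differences of single members. DDIT4, an inhibitor of mTORC1 signalling, read 7.63, 7.47 and 7.28 with JK and 7.06, 7.03 and 7.10 with JINB8, a difference of -0.40 ± 0.10 (SE). FOXO3, a transcription factor restrained by AKT, read 5.38, 5.38 and 5.33 against 5.06, 4.91 and 5.02, a difference of -0.37. Both had groups without overlap. The MAPK feedback gene SPRED2 was higher by 0.48, FOSL2, an AP-1 subunit, by 0.52, and KLF6, an immediate early factor, was lower, at -0.32. BIRC5, survivin, differed by -0.38, RFC5, a clamp loader subunit, by -0.33 and FOXM1, a mitotic transcription factor, by 0.33. On another, dimmer probeset BIRC5 differed by -0.11. None passed.

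For the remaining lists the counts stand beside 5.42% of all genes higher and 6.34% lower. Genes of the exosome pathway, 30 in number, had 3 higher and 2 lower at an unadjusted p under 0.05. RAB7A, a late endosome GTPase, was higher by 0.27 and the tetraspanin CD81 by 0.22, while the tetraspanin CD63 was lower, at -0.22. On another, dimmer probeset RAB7A differed by 0.02. In the order higher and lower, tip cell genes gave 2 and 2 of 20, Notch genes 0 and 1 of 20, NF-kB regulators 0 and 2 of 18 and IL1 and IL6 type cytokines 0 and 0 of 13. TGF-beta targets gave 1 and 0 of 23, contractile genes 2 and 0 of 19, collagens and laminins 1 and 0 of 24 and coagulation genes 1 and 0 of 21. Immediate early genes gave 5 and 1 of 33, and alpha-arrestins, sestrins and FOXO targets 0 and 3 of 20.

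Among metabolic and stress lists, glycolysis and hypoxia genes gave 2 and 1 of 32, ATF4 genes 2 and 2 of 23, unfolded protein response genes 0 and 0 of 24 and NRF2 targets 0 and 1 of 16. Metallothioneins gave 1 and 0 of 10 and cholesterol synthesis genes 1 and 2 of 18. Of the cell cycle lists, G1 genes gave 1 and 2 of 19, DNA replication genes 0 and 3 of 38 and mitosis genes 1 and 2 of 39. The angiopoietin and TIE list gave 2 and 0 of 7. No member of any list passed.

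Marker lists of other cell types had close mean levels in both groups. The mean level of the 28 T cell markers was 4.09 to 4.17 with JK and 4.12 to 4.15 with JINB8, against 5.51 to 5.74 in exosome RNA. Of these markers 3 were higher (5.42% of all genes) and 2 lower (6.34%) with JINB8 at an unadjusted p under 0.05. That of 14 monocyte and macrophage markers was 4.06 to 4.15 and 4.13 to 4.14. The 21 mural cell and fibroblast markers averaged 4.67 to 4.72 and 4.73 to 4.75, with 3 higher and 0 lower, beside the same shares of all genes. Among the latter RGS5 read 10.07 to 10.18 with JK and 10.18 to 10.44 with JINB8. FAP was higher by 0.42 but read only 2.75 to 3.21 with JK and 3.31 to 3.42 with JINB8. That is below the median gene at 5.61, and whether it lay above background was not tested. The 10 erythroid and platelet markers averaged 4.16 to 4.28 and 4.16 to 4.29.

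The same contrast of sources was available in the vesicles themselves, on arrays that the HUVEC comparison does not share. Between JINB8 and JK exosome RNA 123 genes rose (0.668% of genes) and 2 fell (0.0109%), SNRPA1 and PCDHGB4, at an adjusted p under 0.05 by limma. Of the 123, 45 had a difference above 0 in the treated HUVEC, against 44.2% of all genes. Of them 10 had HUVEC groups without overlap higher, against 7.68% of all genes, and 26 lower, against 9.78%. Their median difference was 0.65 in exosome RNA and -0.07 in HUVEC. Across all genes the differences of both comparisons correlated at -0.06, as a description across genes.

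CDK6, a G1 cyclin-dependent kinase, read 4.62, 4.67 and 4.53 in JK and 6.08, 5.79 and 5.98 in JINB8 exosome RNA. In the treated HUVEC it read 7.60, 7.47 and 7.77 with JK and 7.96, 7.65 and 7.47 with JINB8. The vesicle groups did not overlap and the HUVEC groups did, with differences of 1.34 and 0.08. SH3KBP1, an endocytic adaptor, differed by 1.96 in the vesicles and 0.09 in the cells, LDHA, lactate dehydrogenase A, by 1.29 and -0.02, and FAF2 by 1.73 and 0.05. Of the 123 genes 19 encode cytoplasmic ribosomal proteins (of 68 measured) and 8 histones (of 57), against 0.668% of all genes. The histone H3C11 differed by 1.10 in the vesicles and by -0.97 in the cells, where it read 9.48, 9.38 and 7.95 with JK and 7.54, 7.76 and 8.61 with JINB8.

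The difference between HUVEC and exosome RNA in this contrast was tested as an interaction over 12 arrays. It passed for 145 genes (0.787% of genes), 126 of them lower in the HUVEC contrast than in exosome RNA and 19 higher, with a smallest adjusted p of 0.000615. It uses the same exosome RNA arrays that chose the 123 genes, so its direction in those genes is no further evidence. Cytoplasmic ribosomal proteins gave 23 (of 68 measured), histones 9 (of 57), oxidative phosphorylation genes 6 (of 68) and proteasome genes 5 (of 45). Glycolysis and hypoxia genes gave 4 (of 32) and unfolded protein response and heat shock genes 3 (of 24). All of these were lower in the HUVEC contrast than in exosome RNA, which is not a lower level in HUVEC. In exosome RNA alone 19 of the ribosomal genes and 8 of the histones had already passed higher with JINB8. MIR221 was among the 19, with an interaction of 1.21 (adjusted p = 0.00667). It was named for its HUVEC difference, which the interaction contains, so this is no further evidence for that difference. The count was 57 without JK replicate 2 and 338 without JK replicate 3.

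**Figure D5:**
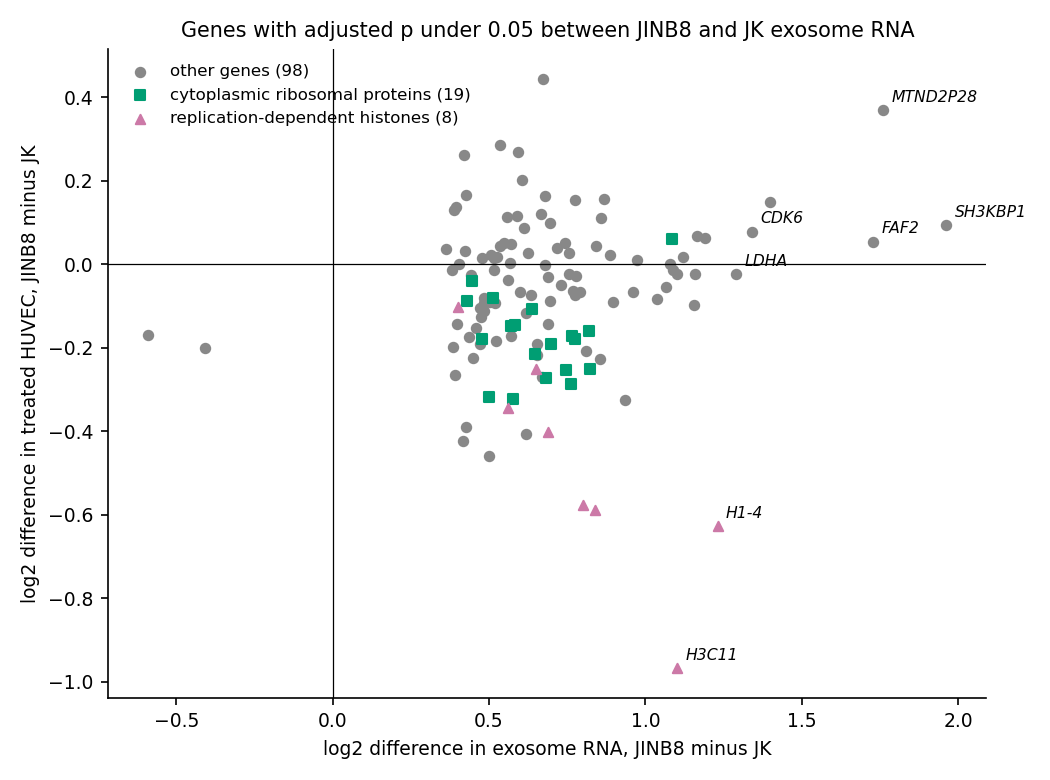
Genes with an adjusted p under 0.05 between JINB8 and JK exosome RNA, with the log2 difference in exosome RNA on the x axis and that in treated HUVEC on the y axis, marked by gene family. SH3KBP1 lies at 1.96 and 0.09 and H3C11 at 1.10 and -0.97, and 45 of the 123 genes higher in JINB8 exosome RNA lie above 0 on the y axis.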

How the data were processed

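Whole-transcript Affymetrix gene arrays measured RNA of 15 samples. The deposited log2 levels were made with Affymetrix Expression Console, per the submitters' processing notes; its version, its normalization and which arrays shared it were not given in the sources used here. These values carry no detection calls.

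Of 33297 probesets, 19460 had 1 gene symbol, 1754 several and 12083 none. Entrez identifiers placed 19429 in the gene reference and changed 0 symbols. For a gene with several probesets the one with the highest mean of 15 arrays was kept, leaving 18417 genes, 769 with several probesets. Columns not matched to a sample numbered 0. Groups came from the sample titles. The values were tested with limma 3.58.1 in R 4.3.3 (lmFit and eBayes, 6 arrays, 4 residual degrees of freedom), adjusted by Benjamini-Hochberg over 18417 genes at 0.05, with no pseudocount. The fit was tested on simulated data with each value drawn independently. That setting lacks a deviation shared across genes, as seen on the arrays labelled replicate 3.

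The text names the 12 highest and 12 lowest differences among brighter genes and 5 and 5 among dimmer ones with an unadjusted p under 0.01 and no overlap. Further genes were drawn from up to 3 members of each of 44 lists with an unadjusted p under 0.05, and from 16 genes of prior interest. Not all of these further genes are printed, and TAGLN and ST8SIA6 are among those left out. LOC, ORF, LINC and antisense symbols were passed over. The members, lists and tests were chosen with earlier results of these data known. GNA14, SLC5A3, PLAT, VEGFC, IPO13, PIAS3, BMPR2, TIMP2, CLDN5, the smaller microRNAs and the exosome RNA examples were chosen after their values were seen. The number of arrays limits the precision.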

Additional observations from a re-analysis of the deposited data

Results flagged for a closer look

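The contrast of JINB8 with JK differed between treated HUVEC and exosome RNA for 145 genes, by the limma interaction over 12 arrays. The interaction is the HUVEC log2 difference minus that in exosome RNA. Of the named genes it was lower in HUVEC for H3C11 (-2.07), SH3KBP1 (-1.87), FAF2 (-1.67), MTND2P28 (-1.39), LDHA (-1.31), PSMA6 (-1.29), CDK6 (-1.26) and MPLKIP (-1.25). All of these but PSMA6 were named for their difference in exosome RNA, on arrays that the interaction also uses, so their direction is no further evidence. Ribosomal, histone and splicing genes in this direction were RPS27 (-0.98), H2AC20 (-0.92), H3C7 (-0.80), SNRPB (-0.72) and RPL12 (-0.71). SNORD104 (-0.69), SCARNA17 (-0.69), PSMB6 (-0.64), ATP5PB (-0.64), COA8 (-0.53) and NDUFA11 (-0.50) followed. It was higher in HUVEC for OR2J3 (1.27), MIR221 (1.21), CPSF7 (0.74), RNF214 (0.73), IPO13 (0.72), ATN1 (0.70), STIM2 (0.68), SRCAP (0.63) and UBQLN4 (0.62). Apart from the genes named for exosome RNA, those listed here were named for their HUVEC difference, on arrays that the interaction also uses. Their direction is no further evidence either. Whether both sets of arrays were normalized together is unknown, and the cause of these differences was not tested.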

How the results depend on the processing

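The count of genes at an adjusted p under 0.05 was 6 with array weights, 93 (73 higher and 20 lower) with 15 arrays in 1 fit, and 45 (32 and 13) under an unadjusted p of 0.05 with at least 1.5-fold. With 9 HUVEC arrays it was 0, with 1678 genes at an unadjusted p under 0.05, 1581 of them shared. Of the 24 leading brighter genes 4 passed with array weights and 16 with 15 arrays. The count at an unadjusted p under 0.05 was 3461 over all probesets and 3575 with array weights, and 1267 to 3239 with 1 array left out. Genes whose interval lay within 1.5-fold numbered 16650 to 17019 with 1 array left out. The interaction count was 57 to 338 with 1 HUVEC array left out, with 71 without JK replicate 1, 57 without JK replicate 2, 60 without JINB8 replicate 2 and 338 without JK replicate 3. The alternatives that left out arrays for the interval, list and interaction results were chosen after seeing the data.

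With the replicate number as a block, 0 genes passed, 1471 had an unadjusted p under 0.05, and the interaction passed for 70. Same-numbered arrays deviated from their group means at correlations of -0.20, -0.18 and -0.45. On the first principal component both arrays labelled replicate 3 lay towards the other group, which by itself makes such deviations opposite. These correlations therefore cannot settle whether the numbers pair the samples.

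Of the 136 genes drawn by the naming rules, printed or not, 4 changed direction under an alternative. SIRPA became 0.027 with median centring and -0.123 to 0.033 with 1 array left out. PECAM1 became -0.164 with the mean of its probesets and -0.017 to 0.058 with 1 array left out. SELE ranged from -0.781 to 0.046 and CXCL8 from -0.101 to 0.175. The cause was not tested. Of 44 list medians 27 were below 0, and 14 changed sign with median centring and 6 with quantile normalization.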
